A study of Mus musculus with 15 samples.

Results

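Among 7909 genes measured above a low-signal filter in mouse neural stem cells, 70 genes (0.885%) had their highest mean level 12 h after the onset of differentiation and a lower mean both before it and at 24 h. A gene was included when its 12 h mean lay at least 0.5 above the undifferentiated mean and at least 0.5 above the 24 h mean on the log2 scale. The smaller of those differences is called the peak height here. The same measured values chose these genes, so their levels in the groups are a description and carry no test.

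The cells came from the subventricular zone, the lining of the lateral ventricles that holds stem cells in the adult brain, of 6-month-old female C57Bl6/J mice. They were grown as neurospheres over several passages. There were 3 groups of 5 arrays: undifferentiated cells in medium with bFGF and EGF, and cells cultured for 12 h or for 24 h on poly-D-lysine with 5% serum and without these growth factors. Loss of growth factors, addition of serum and attachment to the coated surface came together, so their effects cannot be told apart, and there was no 12 h or 24 h group that kept the growth factors. The labels do not say whether the samples are separate cultures or animals, and the spread between arrays may therefore be technical. In undifferentiated cells the log2 level was 7.54 ± 0.30 for Sox2, 6.34 ± 0.28 for Nes and 9.95 ± 0.53 for Fabp7 (SD, n = 5), which are genes of neural stem cells.

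In cells that attach and spread, integrins bind matrix proteins such as laminin and fibronectin, and vinculin, filamin and other adaptors tie them to actin fibres that myosin II contracts. Polymerised actin frees the cofactors of serum response factor, and spread cells hold the cofactors YAP and TAZ in the nucleus, where they act with TEAD proteins. Classical targets of these factors encode parts of the same machinery. Caveolae are small invaginations of the plasma membrane built from caveolins and cavins.

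Before the levels of single genes are given, 2 features of the arrays bear on all of them. First, 12 h replicates 3 and 4 were close to identical. The SD of their difference over all genes was 0.150 on the log2 scale, against 0.277 for the next closest pair of the 15 arrays (24 h replicates 2 and 3). The labels list them as separate samples, and whether they share a culture or an RNA extract is not given. They were kept as 2 arrays, and values are with both unless another treatment is named. The rule's counts are also given with the pair averaged and without it. Of the genes outside the 70 that are named below as called at 12 h against undifferentiated cells, all 16 kept the call and its direction with the pair averaged (highest limma adjusted p = 0.0283) and without it (0.0318). Second, the titles and the array files carry codes that disagree for 13 of 15 samples, and for 8 the group would differ as well. Groups follow the titles. Grouped by file codes, 8 genes met the rule and 0 of them were among the 70.

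The peak lay largely in the near-identical pair of 12 h arrays. Over the 70 genes, the median deviation from the undifferentiated mean was 1.26 and 1.29 on the log2 scale in 12 h replicates 3 and 4. It was 0.35, 0.65 and 0.40 in 12 h replicates 1, 2 and 5. It ran from -0.13 to 0.13 in the undifferentiated arrays and from -0.25 to 0.32 at 24 h. All 5 arrays at 12 h thus lay above the other 10, with replicate 1 only just above 24 h replicate 3. All 70 genes were above their undifferentiated mean in replicates 3 and 4, against 47, 63 and 53 in replicates 1, 2 and 5. Since the 12 h values chose the genes, the order of the groups follows from the rule. The pair is 2 of the 5 arrays behind the 12 h mean, so the rule also favours genes that are high in it.

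**Figure D1:**
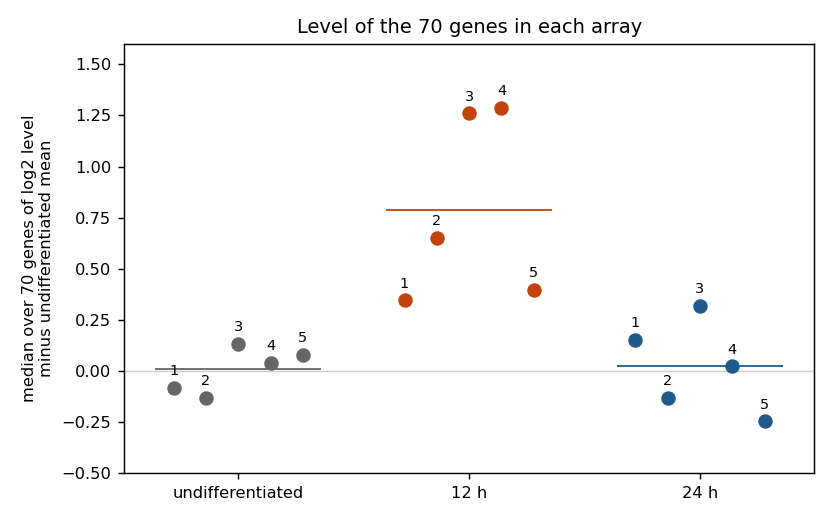
Each point is an array and gives the median over the 70 genes of the log2 level minus the mean of the undifferentiated arrays. Numbers are replicates within a group and lines are group means. At 12 h, replicates 3 and 4 sit at 1.26 and 1.29 and the other 3 arrays between 0.35 and 0.65.

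Replicates 3 and 4 were the highest pair of all 15 arrays for 50 of the 70 genes. The share was 6.4% of all tested genes, which were not chosen by their 12 h mean, so the shares are not a like comparison. They were the only arrays above all 10 arrays of the other groups for 15 genes. The mean of the pair exceeded the mean of the other 12 h arrays for 60 genes. By array, 24, 42, 63, 62 and 18 genes in 12 h replicates 1 to 5 lay above every undifferentiated and 24 h array. All 5 arrays did so for 3 genes, Nrp1, Hspb1 and Smpd1, where 7 of all tested genes (0.0885%) had that pattern. It was 4 arrays for 18 genes, 3 for 28, 2 for 17 and 1 for 4.

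Without replicates 3 and 4, 18 of the 70 genes still met the rule, 43 had a peak height between 0 and 0.5, and 9 had no peak at 12 h. The median peak height went from 0.63 to 0.33. The median over all tested genes was -0.15 with every array. With the pair averaged, 44 genes met the rule. Without the pair 62 genes met the rule in all, and 44 of them were not among the 70. Those were led by the cytochrome P450 genes Cyp4f15 and Cyp2j9, with heights of 1.04 and 0.97, and held Hes5, a Notch target, with 0.67, and the lysosomal genes Npc1 and Ctsd, with 0.62 and 0.59.

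**Figure D2:**
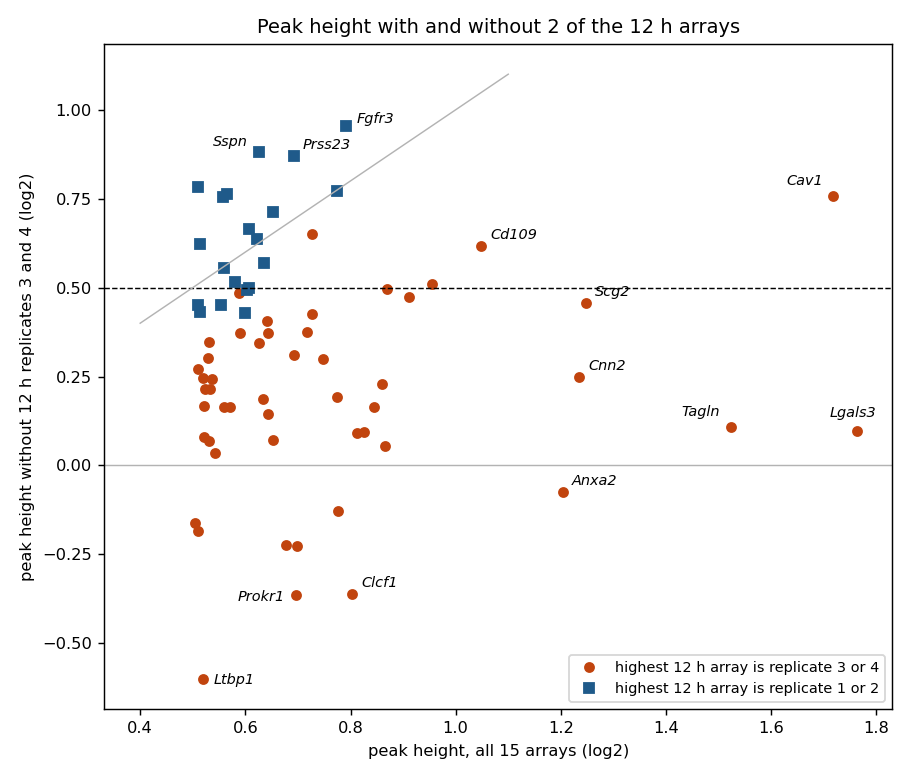
Each point is 1 of the 70 genes, with its peak height from all 15 arrays across and its peak height without 12 h replicates 3 and 4 upward, both in log2 units. The dashed line marks the threshold of 0.5 and the slanted line equal heights. The 18 genes at or above the dashed line kept the rule, among them Cav1 and Fgfr3, and 9 genes such as Anxa2 and Ltbp1 lie below 0.

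The arrays also fall into 3 suffixes of the title code, here A, B and C, whose meaning the labels do not state. Replicates 3 and 4 are the 12 h arrays of suffix B. The rule was met by 60 of the 70 genes within suffix B, 21 within A and 18 within C, with median peak heights of 1.07, 0.28 and 0.11. Of all 7909 tested genes, 258, 72 and 90 met it within B, A and C. Arrays per group differ between the suffixes, and suffix B supplies replicates 3 and 4 to the 12 h mean that chose the genes. In A the 24 h level is replicate 1 alone. In C the undifferentiated level and the 12 h level are each replicate 5 alone. Heights within A and C thus rest in part on single arrays. Among the 70, the height was above 0 for 70, 60 and 44 genes within B, A and C, and for 40 genes within every suffix. Cav1, Tagln, Gpc4 and Cdh6 met the rule within all 3. With the suffix as a block in the means, 62 of the 70 kept the rule.

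Technical controls of the pair were not all like those of the other 12 h arrays. The poly-A spike-ins, added before labelling, averaged 1.79 and 1.96 on the log2 scale in replicates 3 and 4 and 2.63 to 2.82 in the others. The actin 3'/5' ratio, which rises as RNA breaks down, was 2.21 and 2.42 in the pair and 2.27 to 2.59 in the others. Both controls also differed between groups. The actin ratio was 1.63 to 2.22 in undifferentiated arrays and 2.23 to 3.21 at 24 h, and the poly-A level 0.42 to 2.02 and 2.13 to 2.59. Hybridisation controls averaged 4.96 and 3.99 in replicates 3 and 4 and 4.74 to 6.66 in the other 12 h arrays. The part of these controls in the results was not tested. Genes of proliferation differed as well between the pair and the other 12 h arrays. The median deviation of 20 genes of DNA replication from their undifferentiated mean was -0.56 and -0.62 in the pair, and -2.87, -1.58 and -1.78 in replicates 1, 2 and 5. For 12 genes of the ERK response, which growth factors sustain, it was -0.04 and 0.01 in the pair against -1.55, -1.42 and -1.84. On both lists the pair lay closer to undifferentiated cells than the other 12 h arrays did. The 24 h arrays of suffix B, replicates 2 and 3, likewise lay closer than the other 24 h arrays on both lists. For DNA replication their median deviation was -0.94 and -1.17, against -2.65, -2.29 and -2.25 in 24 h replicates 1, 4 and 5. Neither the part of the suffix in these differences nor their part in the peak was tested.

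**Figure D3:**
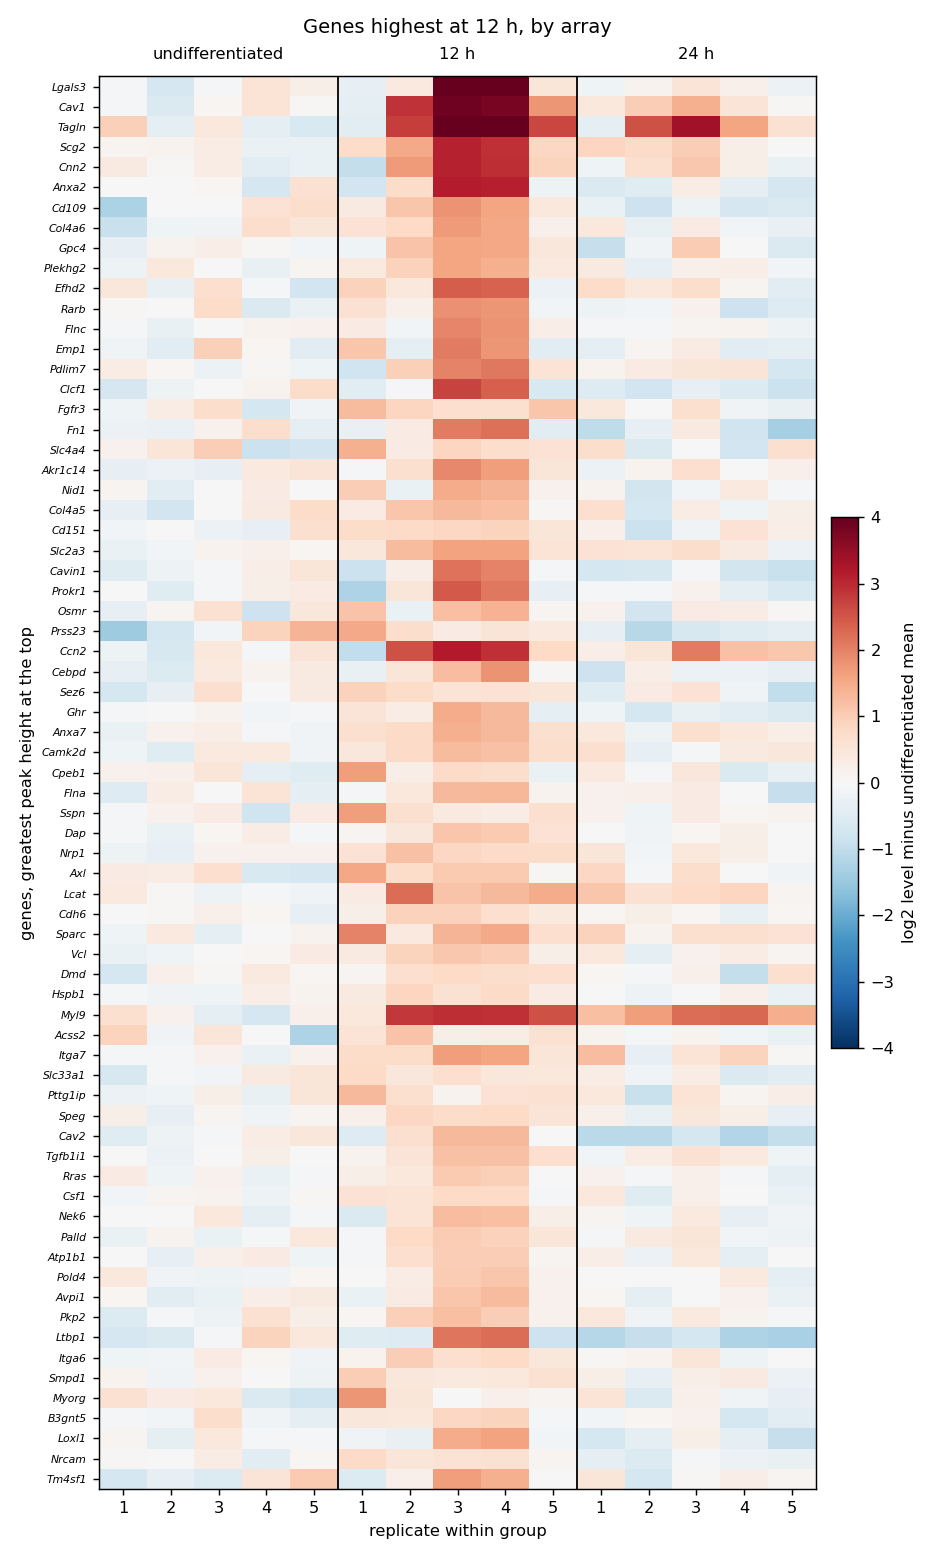
The 70 genes in rows, ordered by peak height, and the 15 arrays in columns by group and replicate. Colour gives the log2 level minus the gene's undifferentiated mean and ends at 4 in either direction. The columns of 12 h replicates 3 and 4 are the darkest for most rows, while Fgfr3, Sspn, Prss23, Cpeb1 and Myorg are highest in 12 h replicate 1.

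The 70 genes are described below in groups by known role, formed after the values were seen and not tested against each other. The group of actin and contractile genes holds 12 of them. Promoter windows are shown for some members of it that carry matches to the motifs searched, and for Cavin1 and Anxa2. Other genes of the 70 with matches are not shown, among them Flna, Palld, Plekhg2, Efhd2 and Speg of the actin group, and Cav2. RefSeq promoters (GRCm38.p6) were given for 57 of the 70 genes, with 83 windows of 250 bases upstream of a transcription start. Each is printed along its gene's strand, with matches in capitals: the CArG box of serum response factor in Cnn2, Myl9 and Vcl, the TEAD motif GGAATG or its reverse complement in Vcl, Flnc and Cavin1, and the AP-1 motif TGANTCA in Anxa2.
Cnn2, chr10:79988350-79988599, plus strand: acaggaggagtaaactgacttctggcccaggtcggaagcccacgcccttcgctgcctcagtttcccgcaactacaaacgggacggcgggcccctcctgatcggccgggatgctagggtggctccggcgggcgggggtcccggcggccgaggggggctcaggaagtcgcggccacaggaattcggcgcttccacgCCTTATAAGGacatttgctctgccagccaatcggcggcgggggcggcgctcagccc
Myl9, chr2:156775214-156775463, plus strand: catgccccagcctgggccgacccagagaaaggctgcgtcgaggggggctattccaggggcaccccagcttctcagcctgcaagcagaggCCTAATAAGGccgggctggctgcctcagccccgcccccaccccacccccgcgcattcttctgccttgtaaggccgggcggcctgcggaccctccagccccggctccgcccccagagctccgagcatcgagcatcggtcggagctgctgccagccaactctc
Vcl, chr14:20929148-20929397, plus strand: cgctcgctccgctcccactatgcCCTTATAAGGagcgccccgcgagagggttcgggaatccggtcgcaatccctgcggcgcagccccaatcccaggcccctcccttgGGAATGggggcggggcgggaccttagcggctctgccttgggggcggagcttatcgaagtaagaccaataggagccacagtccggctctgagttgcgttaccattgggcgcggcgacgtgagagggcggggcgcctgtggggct
Flnc, chr6:29433006-29433255, plus strand: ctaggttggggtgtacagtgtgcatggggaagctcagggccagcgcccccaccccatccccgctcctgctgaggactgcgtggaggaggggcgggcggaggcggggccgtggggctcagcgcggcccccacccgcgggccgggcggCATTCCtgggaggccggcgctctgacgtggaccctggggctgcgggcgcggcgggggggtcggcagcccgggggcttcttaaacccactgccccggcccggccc
Cavin1, chr11:100970618-100970867, minus strand: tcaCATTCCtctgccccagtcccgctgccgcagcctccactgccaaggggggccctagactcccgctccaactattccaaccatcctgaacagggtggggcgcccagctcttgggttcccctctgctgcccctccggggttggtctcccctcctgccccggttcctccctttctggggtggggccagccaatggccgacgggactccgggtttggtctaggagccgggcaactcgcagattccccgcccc
Anxa2, chr9:69453433-69453682, plus strand: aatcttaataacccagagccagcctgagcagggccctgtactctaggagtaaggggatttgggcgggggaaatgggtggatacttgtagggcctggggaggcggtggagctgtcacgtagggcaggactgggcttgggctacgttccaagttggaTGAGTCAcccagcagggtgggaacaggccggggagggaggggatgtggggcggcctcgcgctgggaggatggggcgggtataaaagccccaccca

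Both strands were searched, and overlapping windows of a gene were counted separately. GGAATG stood in 28.9% of the windows of these genes, against 10.6% of the windows of all tested genes and 12.6% of all 32851 windows in the table. Counted by gene, 20 of 57 held it, or 35.1%, against 12.9% of 6490 tested genes. TGANTCA stood in 10.8% of the windows, against 4.21% for tested genes and 6.75% of all windows. The CArG box was found in 4 genes, Cnn2, Dmd, Myl9 and Vcl, or 4.82% of windows, against 1.29% for tested genes. Tagln and Ccn2 had no promoter given, so neither was searched for any motif. The STAT motif TTCCNGGAA stood in 1.2% and 0.837%. The GC content was alike, 60.7% and 60.4%. A match is a description of the letters and no evidence of binding.

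Tagln, an actin-binding protein of smooth muscle known as transgelin, had log2 levels of 0.80, 4.02, 6.45, 6.46 and 3.92 in the 12 h arrays. Its undifferentiated arrays read 2.20, 0.86, 1.69, 0.90 and 0.63, and its 24 h arrays 0.90, 3.80, 4.61, 2.83 and 1.88. Replicate 1 at 12 h stayed within the undifferentiated range, and 24 h replicate 3 exceeded 3 of the 12 h arrays. The means were 1.26 ± 0.66 in undifferentiated cells, 4.33 ± 2.33 at 12 h and 2.80 ± 1.48 at 24 h (SD, n = 5), an 8.4-fold difference between 12 h and undifferentiated cells. Without replicates 3 and 4 the peak height went from 1.52 to 0.11.

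Myl9, the regulatory light chain of smooth muscle and non-muscle myosin II, read 3.16, 5.55, 5.70, 5.67 and 5.29 at 12 h. Undifferentiated arrays lay between 2.07 and 3.38 and 24 h arrays between 3.94 and 5.02. Apart from replicate 1, the 12 h arrays lay above all others, and the 24 h mean of 4.50 ± 0.47 stayed 1.77 above the undifferentiated mean of 2.73 ± 0.52. Myl9 thus kept most of its 12 h level, 5.07 ± 1.08, and had a peak height of only 0.57. Cnn2, calponin 2, which binds actin, read 1.16, 3.82, 5.20, 5.08 and 3.02 at 12 h, with 1.71 to 2.48 before and 1.84 to 3.19 at 24 h. Its replicate 1 was the lowest of all 15 arrays.

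The filamins, which cross-link actin, differed in level. Flna read 3.88, 4.35, 5.20, 5.23 and 4.07 at 12 h and 2.98 to 4.46 elsewhere, so that the pair alone stood above the other groups. Flnc read 0.91, 0.49, 2.53, 2.38 and 0.86 at 12 h and 0.28 to 0.77 elsewhere, with 4 of the 12 h arrays above the rest although the other 3 stayed near the low-signal filter of 0.51. Vcl, vinculin, which links integrins to actin, read 4.61, 5.17, 5.33, 5.26 and 4.48 against 3.88 to 4.69 elsewhere. Pdlim7, a PDZ and LIM domain adaptor on actin, read 1.60 in replicate 1, the lowest of all 15 arrays, and 2.94 to 4.49 in the other 12 h arrays.

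The remaining members of the group were Palld, a scaffold of actin bundles, Speg, a kinase of muscle, the focal adhesion adaptor Tgfb1i1, the exchange factor Plekhg2 and the actin-binding Efhd2. Peak heights in the group ran from 0.53 to 1.52 (median 0.72). Without the pair they ran from 0.06 to 0.50 with a median of 0.22, and 0 of the 12 genes met the rule. The pair was higher than the other 12 h arrays for all 12 genes, by a median of 1.06, and replicate 1 lay below the undifferentiated mean for 5.

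Of 19 measured targets of serum response factor and YAP, 6 were among the 70: Tagln, Cnn2, Ccn2, Flna, Vcl and Myl9. Of the other 13, limma called 2 higher and 0 lower at 12 h than in undifferentiated cells (4 and 0 at an unadjusted p under 0.05), where it called 3.3% of all tested genes higher and 4.56% lower. Their median change was 0.47 on the log2 scale, against 0.0045 over all genes, and 0.10 without the pair, when 2 were called higher and 3 lower, against 9.51% and 14.8% of all tested genes. Acta2, smooth muscle actin, rose by 3.22 ± 0.72 (SE, n = 5; limma adjusted p = 0.0165) and by 2.44 without the pair (adjusted p = 0.0318). At 24 h it differed from 12 h by -0.19 ± 0.72 (adjusted p = 0.933), and its 12 h replicate 1 read 2.41 against 6.21 to 7.12 in the other 12 h arrays. Amotl2, a YAP target that binds YAP, rose by 0.93 ± 0.23 (adjusted p = 0.0236) at 12 h and by 1.54 ± 0.23 at 24 h over undifferentiated cells (adjusted p = 0.000314), and the difference of 0.61 ± 0.23 between 24 h and 12 h did not pass (adjusted p = 0.208). Their peak heights were 0.19 and -0.61. At 24 h against undifferentiated cells, limma called 5 of the 13 higher and 3 lower, where it called 12.7% and 19.4% of all tested genes. Besides Acta2 and Amotl2, Thbs1, Fhl2 and Lats2 were higher, by 1.13 ± 0.34, 1.04 ± 0.30 and 0.74 ± 0.22 (adjusted p = 0.0174, 0.0166 and 0.0186). Tagln2, a relative of Tagln, fell by 2.34 ± 0.44 (adjusted p = 0.00129), and the focal adhesion protein Zyx and the tropomyosin Tpm4 fell by 0.86 ± 0.28 and 0.96 ± 0.33 (adjusted p = 0.0262 and 0.0379). Ajuba lay just outside the rule, with a 12 h mean 0.498 above the 24 h mean.

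The greatest peak heights belonged to Lgals3 and Cav1. Lgals3, galectin-3, a lectin that binds β-galactosides, read 0.33, 1.07, 5.13, 4.91 and 1.17 at 12 h. Undifferentiated arrays read 0.62, 0.01, 0.61, 1.21 and 0.91, and 24 h arrays 0.48, 0.82, 1.18, 0.88 and 0.43. Its peak was confined to replicates 3 and 4, and the other 3 arrays at 12 h overlapped both groups. The 12 h mean was 2.52 ± 2.31, and the peak height of 1.76 became 0.10 without the pair.

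Cav1, the main structural protein of caveolae, read 1.85, 5.08, 6.07, 5.98 and 3.95 at 12 h. The undifferentiated arrays read 2.10, 1.63, 2.26, 2.74 and 2.24, and the 24 h arrays 2.61, 3.16, 3.60, 2.72 and 2.25. All 12 h arrays but replicate 1 stood above every other array. The 12 h mean of 4.59 ± 1.75 was 5.26-fold the undifferentiated level and 3.29-fold the 24 h level, and without the pair the height was 0.76, so Cav1 kept the rule.

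Cav2, which assembles with Cav1, read 3.66, 4.83, 5.49, 5.48 and 4.16 at 12 h. It differed from Cav1 in that its 24 h arrays, 3.02 to 3.48, all lay below the undifferentiated arrays, 3.71 to 4.63. Most of its fall of 1.54 from 12 h to 24 h thus took it below the starting level. Cavin1, the coat protein of caveolae, read 1.90, 3.05, 4.95, 4.77 and 2.69 at 12 h, 2.30 to 3.26 in undifferentiated cells and 1.88 to 2.74 at 24 h. Only the pair stood out, and without it the height was -0.23.

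Anxa2, a calcium-dependent membrane-binding protein that also binds actin, followed the pattern of Lgals3. It read 2.26, 3.75, 6.16, 6.12 and 2.83 at 12 h, 2.34 to 3.62 in undifferentiated cells and 2.36 to 3.33 at 24 h, and its height went from 1.20 to -0.07 without the pair. A second probe set of Anxa2, of lower signal, read 1.54 and 1.60 in the pair and 0.34 to 0.86 in the other 13 arrays. Anxa7, another annexin, rose more evenly, with 2.88, 3.03, 3.67, 3.54 and 2.88 against 1.97 to 2.88 elsewhere. Over these 6 genes of caveolae, annexins and galectin, the pair exceeded the other 12 h arrays by a median of 2.36, which was 1.06 in the actin group.

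**Figure D4:**
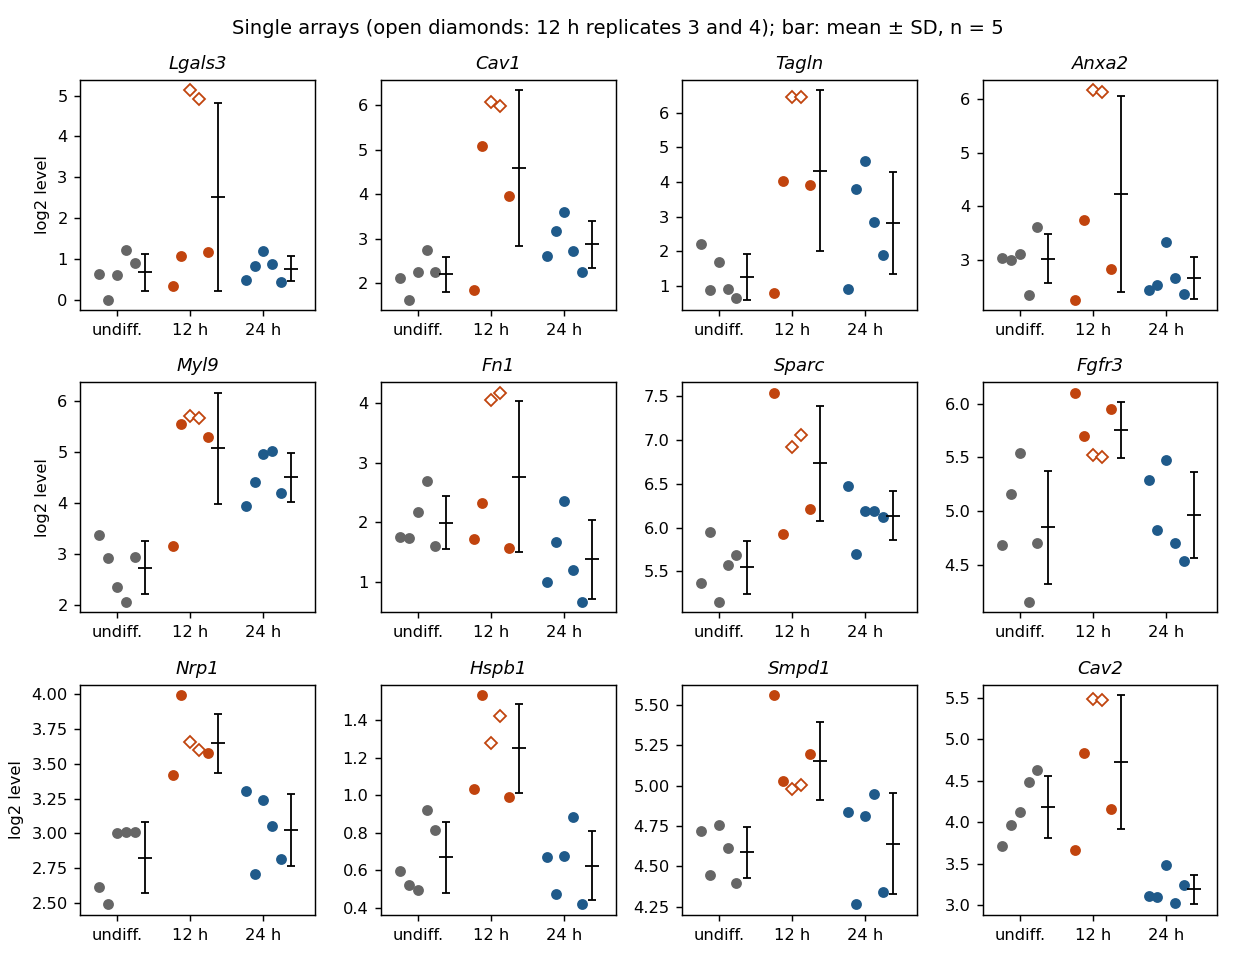
Log2 levels of 12 of the genes in single arrays, with the group mean and SD (n = 5) as a bar beside the points; open diamonds are 12 h replicates 3 and 4. Lgals3, Anxa2 and Fn1 are high in the diamonds alone, Cav1, Tagln and Myl9 are high in all 12 h arrays but replicate 1, Sparc and Fgfr3 are highest in replicate 1, and for Nrp1, Hspb1 and Smpd1 all 12 h arrays lie above the others.

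Of the 70 genes, 9 belong to the matrix or its regulation. Sparc, a matrix-binding glycoprotein, read 7.54, 5.93, 6.92, 7.06 and 6.22 at 12 h, 5.15 to 5.95 in undifferentiated cells and 5.70 to 6.47 at 24 h. Replicate 1 was its highest array, and its 24 h mean of 6.14 ± 0.28 lay between the undifferentiated mean of 5.55 ± 0.30 and the 12 h mean of 6.73 ± 0.65. Fn1, fibronectin, read 1.71, 2.32, 4.06, 4.18 and 1.56 at 12 h, 1.60 to 2.70 before and 0.66 to 2.36 at 24 h. Ltbp1, which holds latent TGF-β in the matrix, read 0.78, 0.76, 3.42, 3.51 and 0.45 at 12 h, 0.60 to 2.14 before and -0.03 to 0.55 at 24 h. In both genes the pair stood alone above the undifferentiated arrays, and without it the 12 h means differed from the undifferentiated means by -0.13 and -0.60.

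Ccn2, a secreted protein and classical YAP target, read -0.05, 3.46, 4.09, 3.84 and 1.72 at 12 h, 0.30 to 1.44 before and 1.19 to 3.00 at 24 h. Its lowest and its highest array were thus both at 12 h. The α-chains of basement membrane collagen Col4a5 and Col4a6 had heights of 0.73 and 0.95, and nidogen Nid1, which joins laminin to collagen IV, 0.75. Col4a6 read 2.10, 2.33, 3.24, 3.08 and 1.73 at 12 h against 0.65 to 2.24 elsewhere, and it alone of the 9 genes met the rule without the pair, with 0.51. Gpc4, a glypican, and Loxl1, an enzyme that cross-links elastin, completed the group. Without the pair 4 of the 9 had no peak at 12 h: Fn1, Ltbp1, Loxl1 and Ccn2.

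In the matrix list 27 genes were measured, with Fn1, Nid1, Sparc and Loxl1 among the 70. Of the other 23, limma called 2 higher and 1 lower at 12 h than in undifferentiated cells, where it called 3.3% and 4.56% of all genes. Without the pair it called 2 higher and 8 lower, where 9.51% and 14.8% of all genes were called. Ogn, osteoglycin, rose by 1.79 ± 0.28 (SE; limma adjusted p = 0.0033). Ncan, neurocan, rose by 1.05 ± 0.19 (adjusted p = 0.00677), and Lama1, a laminin chain, fell by 0.76 ± 0.16 (adjusted p = 0.0132). At 24 h 10 of the 23 were lower than in undifferentiated cells and 3 higher, against 19.4% and 12.7% of all tested genes. The fibulin Fbln2 fell by 3.16 ± 0.43 (adjusted p = 0.00019) and the laminin chains Lama5 and Lamb1 by 1.07 ± 0.21 and 1.42 ± 0.30 (adjusted p = 0.00163 and 0.00262) from undifferentiated cells to 24 h. In the list of BMP and TGF-β genes, which held Ltbp1, 5 of the other 24 were called higher and 1 lower at 12 h, against 3.3% and 4.56% of all genes, and without the pair 5 and 2, against 9.51% and 14.8%. Id4, an inhibitor of bHLH factors, rose by 2.45 ± 0.39 (adjusted p = 0.00408), Hey1 by 1.23 ± 0.20 (adjusted p = 0.00408) and Bmpr1a by 0.80 ± 0.19 (adjusted p = 0.02), and Bmp7 fell by 1.81 ± 0.24 (adjusted p = 0.00124).

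Adhesion and membrane anchoring gave 8 genes, and these rested less on the pair. Itga6 and Itga7 encode α-subunits of laminin-binding integrins, and Cd151 is a tetraspanin that associates with them. Itga6 read 5.97, 6.81, 6.50, 6.62 and 6.26 at 12 h against 5.60 to 6.30 elsewhere. Cd151 read 5.98, 6.00, 6.06, 6.12 and 5.71 against 4.37 to 5.89, with a 12 h SD of 0.16, and its height without the pair was 0.65. Itga7 read 2.10, 2.08, 3.04, 2.93 and 1.83 at 12 h and 1.02 to 2.60 elsewhere, with 24 h replicate 1 above 3 of the 12 h arrays.

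The dystrophin complex links the cytoskeleton to laminin, and both Dmd, dystrophin, and Sspn, sarcospan, were included. Dmd read 5.03, 5.59, 5.72, 5.62 and 5.60 at 12 h and 3.98 to 5.57 elsewhere. Sspn read 4.82, 3.80, 3.54, 3.46 and 3.79 against 2.35 to 3.48, so it was highest in replicate 1 and lowest in the pair, and its height rose from 0.63 to 0.88 without them. Nrcam, a neuronal adhesion molecule, lay just inside the rule with 0.51 and read 6.17, 5.91, 5.99, 6.03 and 5.51 at 12 h, 4.98 to 5.72 before and 4.86 to 5.38 at 24 h. Cdh6, a cadherin, and Pkp2, a desmosomal plaque protein, had heights of 0.60 and 0.52. In this group 4 of 8 genes were highest in the pair, the pair exceeded the other 12 h arrays by a median of 0.23, and in no gene did replicate 1 lie below the undifferentiated mean.

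Of 5 measured integrins, Itga6 and Itga7 were among the 70. The other 3 had no call at 12 h by limma (0 at an unadjusted p under 0.05), where it called 3.3% of all tested genes higher and 4.56% lower. Itgav fell by 1.06 ± 0.20 from 12 h to 24 h (adjusted p = 0.0377). That call was lost with the pair averaged (adjusted p = 0.13) and without it, when the difference was -0.84 ± 0.22 (adjusted p = 0.417). Itgb5 fell by 1.53 ± 0.31 from undifferentiated cells to 24 h (adjusted p = 0.00219).

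Ligands, receptors and their effectors made up 14 genes. Clcf1, a cytokine of the family that signals through gp130, read 0.19, 0.57, 3.33, 3.01 and 0.01 at 12 h, -0.04 to 1.36 before and -0.25 to 0.30 at 24 h. Osmr, the receptor of oncostatin M that also pairs with gp130, read 2.24, 0.85, 2.30, 2.48 and 1.21 at 12 h against 0.28 to 1.71 elsewhere. Csf1, the growth factor of macrophages and microglia, read 3.83, 3.82, 4.07, 4.06 and 3.17 against 2.77 to 3.67. The 3 genes thus shared the pair but not the rest: replicate 1 was high for Osmr and Csf1 and low for Clcf1, and replicate 5 was low for all 3. Cebpd, a transcription factor induced by such cytokines, read 1.24, 2.02, 2.78, 3.34 and 1.58 at 12 h and 0.71 to 1.92 elsewhere. Of the other 8 measured cytokine and NF-κB genes, limma called 0 at 12 h, with 2 higher and 0 lower at an unadjusted p under 0.05. Of all tested genes it called 3.3% higher and 4.56% lower. Without the pair it called 1 of the 8 higher and 2 lower, against 9.51% and 14.8% of all tested genes. From undifferentiated cells to 24 h, 2 of the 8 fell, the chemokines Cxcl14 and Cx3cl1, by 1.21 ± 0.33 and 1.20 ± 0.34 (adjusted p = 0.0108 and 0.0143). In that comparison 19.4% of all tested genes were called lower.

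Fgfr3, a receptor of fibroblast growth factors that is high in astrocytes, read 6.10, 5.70, 5.52, 5.50 and 5.95 at 12 h. It read 4.68, 5.16, 5.54, 4.15 and 4.70 in undifferentiated cells and 5.29, 4.82, 5.48, 4.70 and 4.54 at 24 h. The pair held its lowest 12 h values, and its height without them was 0.95, above the 0.79 of all arrays. Nrp1, a co-receptor of semaphorins and VEGF, read 3.42, 3.99, 3.65, 3.60 and 3.57 at 12 h, 2.49 to 3.01 before and 2.71 to 3.30 at 24 h. Every 12 h array of Nrp1 stood above every other array, with a 12 h SD of 0.21, and the height was 0.62 with the pair and 0.64 without. Axl, the receptor tyrosine kinase of Gas6, read 3.74, 2.92, 3.24, 3.24 and 2.26 against 1.52 to 3.04 elsewhere.

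Cd109, a membrane protein that binds TGF-β, read 2.18, 2.92, 3.63, 3.41 and 2.24 at 12 h, 0.56 to 2.52 before and at most 1.63 at 24 h. All of its 12 h arrays exceeded all 24 h arrays, and its height was 0.62 without the pair. Prokr1, a receptor of prokineticins, read -0.13, 1.59, 3.58, 3.23 and 0.80 at 12 h against 0.50 to 1.45 elsewhere and had no peak without the pair. Rarb, a retinoic acid receptor, read 1.98, 1.56, 3.21, 3.14 and 1.25 against 0.55 to 2.12. The growth hormone receptor Ghr, the GTPase Rras and the kinases Camk2d and Nek6 completed the group, with heights of 0.64, 0.53, 0.64 and 0.53. Among 27 other measured growth factors and receptors, limma called 1 higher (Fgfr2, by 0.99 ± 0.21, adjusted p = 0.0132) and 1 lower (Igfbp4, by 1.77 ± 0.45, adjusted p = 0.029) at 12 h than in undifferentiated cells, where 3.3% and 4.56% of all genes were called. Without the pair it called 3 higher and 2 lower, against 9.51% and 14.8% of all genes.

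Transporters and enzymes, 12 genes, contrasted with the actin group. Without the pair 7 of them still met the rule, against 0 of 12 there, and the pair exceeded the other 12 h arrays by a median of 0.01. Smpd1, the acid sphingomyelinase of lysosomes, read 5.56, 5.03, 4.98, 5.00 and 5.20 at 12 h, 4.40 to 4.75 before and 4.26 to 4.95 at 24 h. It had all 12 h arrays above the rest, with the pair at the lower end, and a height of 0.51 that was 0.62 without them. Slc4a4, a sodium bicarbonate cotransporter of astrocytes, read 6.32, 5.24, 5.78, 5.61 and 5.49 at 12 h, and the other groups overlapped it, with 4.05 to 5.88 before and 4.14 to 5.62 at 24 h.

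Slc2a3, a glucose transporter of neurons, read 3.96, 4.76, 5.12, 5.10 and 4.05 at 12 h against 3.22 to 4.20 elsewhere. Lcat, which esterifies cholesterol on lipoproteins, was highest in replicate 2 and read 1.73, 3.63, 2.52, 2.68 and 2.87 against 1.18 to 2.51. Acetyl-CoA metabolism was represented by Acss2, which makes acetyl-CoA from acetate, and Slc33a1, which carries acetyl-CoA into the endoplasmic reticulum, with heights of 0.57 and 0.56. Akr1c14, an aldo-keto reductase of steroids, read 0.32, 1.01, 2.31, 2.07 and 0.87 against 0.05 to 1.05 and was high in the pair alone. The serine protease Prss23 read 5.75, 4.94, 4.56, 4.75 and 4.62 at 12 h; the undifferentiated arrays spread from 2.81 to 5.58 and overlapped all but replicate 1, while the 24 h arrays, 3.12 to 3.90, all lay below. The others were Atp1b1, a subunit of the sodium pump, the glycosyltransferase B3gnt5, the glycosidase Myorg and Pold4, a subunit of DNA polymerase δ.

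The remaining 9 genes had mixed patterns. Scg2, secretogranin II, a protein of secretory granules, read 0.90, 1.68, 3.24, 3.10 and 0.99 at 12 h, -0.11 to 0.46 before and 0.15 to 1.16 at 24 h. All of its 12 h arrays exceeded all undifferentiated arrays, but only 3 exceeded all 24 h arrays. Hspb1, a small heat shock protein that binds actin filaments, read 1.03, 1.53, 1.28, 1.42 and 0.99 at 12 h against 0.49 to 0.92 before and 0.42 to 0.89 at 24 h. Its 12 h arrays all stood above the rest, at a level close to the filter. Sez6, a neuronal membrane protein, read 4.28, 4.08, 3.91, 3.92 and 3.84 at 12 h, the tightest of the 9, against 2.36 to 4.00 elsewhere. Emp1, a membrane protein, read 1.47, -0.02, 2.44, 2.12 and -0.10 at 12 h against -0.10 to 1.32. Cpeb1, a regulator of mRNA polyadenylation, and Pttg1ip were highest in replicate 1, and Avpi1, Dap and Tm4sf1 in the pair.

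Of the remaining lists, 5 held a single member each. Of 19 other astrocyte genes, 4 were called higher and 0 lower at 12 h by limma (6 and 0 at an unadjusted p under 0.05), against 3.3% and 4.56% of all genes. Without the pair 8 were called higher and 1 lower, against 9.51% and 14.8%. Among the 4 were Clu by 1.71 ± 0.37 (adjusted p = 0.0142) and Aqp4 by 1.52 ± 0.44 (adjusted p = 0.046), but their median peak height was -0.51. Of 20 other neuronal genes, 1 was called at 12 h, Ncam1, with a rise of 0.88 ± 0.14 (adjusted p = 0.00355), and without the pair 4 were higher. Hspb8 rose by 2.49 ± 0.60 (adjusted p = 0.0232) and Hspe1 fell by 0.95 ± 0.20 (adjusted p = 0.0147) among 12 other heat shock genes. In axon guidance, where Nrp1 was the member, Sema3a, a ligand that binds Nrp1, did not pass at 12 h (0.21 ± 0.17, adjusted p = 0.476) and fell by 0.90 ± 0.17 from 12 h to 24 h (adjusted p = 0.0378), a call lost with the pair averaged (adjusted p = 0.13) and without it, at -0.78 ± 0.20 (adjusted p = 0.391). Of the 14 other glucocorticoid response genes, 3 were called higher and 2 lower at 24 h than in undifferentiated cells, against 12.7% and 19.4% of all genes. Sgk1, Mt2 and Mt1 rose by 1.94 ± 0.29, 2.26 ± 0.48 and 2.21 ± 0.51 (adjusted p = 0.00032, 0.00295 and 0.00445). Dusp1 and Fkbp5 fell by 1.75 ± 0.56 and 0.81 ± 0.27 (adjusted p = 0.0246 and 0.0329). The lists of immediate early genes (19 measured), myelin (13), mitosis (19), DNA replication (20) and the ERK response (12) held no member.

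Limma called 21 of the 70 genes higher at 12 h than in undifferentiated cells, where 3.3% of all genes were (7.86% in either direction). Of all genes, 0.0632% and 0.354% were called higher and lower at 24 h than at 12 h, among them 0 and 2 of the 70, the latter Cav2 and Nrcam, and without the pair 1 gene was called in all, Ctsc, which was not among the 70 and is named after its value was seen. At 24 h against undifferentiated cells it called 2, Myl9 higher and Cav2 lower, where 32.1% of all genes were called in either direction. The rule used these contrasts, so the counts add nothing to it. The 24 h mean lay within 0.5 of the undifferentiated mean for 56 genes, at least 0.5 above it for 7 and at least 0.5 below it for 7. At the threshold, Tm4sf1, Nrcam and Loxl1 lay just inside with heights of 0.50, 0.51 and 0.51, and Stk17b, Ajuba and Cpne2 just outside with 0.499, 0.498 and 0.498.

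Across the 15 arrays the 70 genes resembled each other to differing degrees. The correlation of a gene with the mean of the other members had a median of 0.82 (Pearson, n = 15 arrays) and ran from 0.14 to 0.94, and it exceeded 0.8 for 39 genes. These points share arrays, groups and the pair of 12 h arrays. Outside the set, the profiles most like its mean were those of Lrrk2, a kinase (r = 0.907), Tbc1d10a, a Rab GTPase-activating protein (r = 0.898), and Plxnd1, a semaphorin receptor (r = 0.889), whose heights of 0.46, 0.42 and 0.48 fell short of the threshold. In the RefSeq order of protein-coding genes, 3 pairs of the 70 were direct neighbours: Cav1 and Cav2 (r = 0.695), Col4a5 and Col4a6 (r = 0.858), and Clcf1 and Pold4 (r = 0.783), each over 15 arrays.

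A further probe set above the filter was available for 21 of the 70 genes, 30 probe sets in all. Of these, 29 had a peak height above 0 and 11 reached 0.5, with a median of 0.43, where 25.1% of all tested genes had a height above 0. The exception belonged to Pttg1ip, with -0.05. Probe sets of a gene were read on the same arrays, so they bear on the probes and not on the replicates.

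Markers of other cell types were read on the same arrays. Of those on the array, 0 of 14 for microglia, 0 of 11 for endothelium, 2 of 12 for pericytes and fibroblasts (Cspg4 and Pdgfrb), 2 of 4 for ependyma (Foxj1 and Rsph1) and 2 of 15 for blood cells (Cd14 and Coro1a) passed the filter. The mean level of the pericyte and fibroblast list was -0.15 and -0.13 in the pair, -0.25 to -0.05 in the other 12 h arrays, -0.17 to -0.01 in undifferentiated arrays and -0.07 to 0.02 at 24 h. Cspg4 read 2.94 to 3.65 in undifferentiated arrays, 1.86 to 3.36 at 12 h and 2.51 to 3.13 at 24 h, and Pdgfrb -0.52 to 0.30, 0.03 to 1.05 and 1.14 to 2.05. The mean of the ependyma list was 0.53 to 0.73 in undifferentiated arrays, 0.89 and 0.93 in the pair, 0.68 to 0.99 in the other 12 h arrays and 0.87 to 1.27 at 24 h. Foxj1, a factor of ciliated cells, read 2.10 to 2.64, 2.65 to 3.85 and 3.05 to 4.33 in the 3 groups. Their part in the results was not tested. The fibroblast genes Col1a1, Col1a2, Col3a1, Dcn and Lum were below the filter throughout. Within that range Col1a2 read 0.13 and 0.21 in the pair and -0.31 to -0.16 in the other 12 h arrays. It read -0.36 to -0.06 in undifferentiated arrays and -0.33 to 0.17 at 24 h. The microglial gene Cd68, also below the filter, read 0.24 and 0.27 in the pair and -0.61 to 0.0008 in all other arrays. The microglia list mean was -0.32 and -0.31 in the pair and -0.41 to -0.31 in undifferentiated arrays. Arrays of whole cultures cannot tell more cells of a kind from more RNA per cell.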

How the data were processed

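Biotin-labelled cRNA of each sample was read on 1 Affymetrix mouse array, per the labels' protocols. MAS5 is named in the submitters' processing notes; settings, scaling and genome build were not stated there or in the labels. The deposited values are on a log10 scale, a base settled from the spike-ins, whose values rose by 0.982 ± 0.0468 (SD, 15 arrays) per log10 unit of concentration. Their offset is unknown. They were multiplied by 3.3219 to log2 and used with no further normalisation or pseudocount. Array medians of the log10 values were 0.34 to 0.45 in undifferentiated arrays, 0.35 to 0.45 at 12 h and 0.29 to 0.42 at 24 h. The lowest was that of 24 h replicate 5. Over all tested genes the 12 h mean exceeded the 24 h mean by a median of 0.0583 on the log2 scale. The part of these levels in the peak was not tested. Of 22626 probe sets other than controls, 20380 carried 1 gene symbol, and 691 with several and 1555 with none were not used. Per gene the probe set of highest mean was kept, and genes above the 40th percentile of probe set means (0.51) were analysed, 7909 of 12393. limma 3.58.1 in R 4.3.3 (a mean per group, trended variances, Benjamini-Hochberg adjustment, threshold 0.05) was fitted to all 15 arrays. It was also run on simulated data with independent arrays, without a near-identical pair or a suffix effect. That run therefore does not bear on those features of these data. The errors given with limma are standard errors. No count of molecules exists, so the number of arrays limits the precision.

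The genes, lists, rule and comparisons were chosen with earlier results of these data known. Named were the 25 genes of greatest peak height, those whose 12 h arrays all lay above the other arrays, members of a list, genes at the threshold, up to 6 other called genes of a list by smallest p, and the 3 most alike profiles. Further genes were named after their values were seen. Alternatives changed the scaling, filter, probe set choice, means or medians, thresholds, labels, suffix, variance model and single arrays. The result of 1 gene list is not reported here.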

Additional observations from a re-analysis of the deposited data

Results flagged for a closer look

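In 210 checks of the 70 genes in 3 groups, 8 single arrays stood apart from the other 4 of their group by Dixon's criterion (a gap over 0.71 of the group's range), which chance meets in about 1 of 20 groups. Of the 8, 4 were 12 h replicate 1. It was high for Sspn (4.82 against 3.46 to 3.80 in the other 12 h arrays) and Myorg (4.62 against 2.87 to 3.34), and low for Dmd (5.03 against 5.59 to 5.72) and Myl9 (3.16 against 5.29 to 5.70). Csf1 was low in 12 h replicate 5 (3.17 against 3.82 to 4.07). At 24 h, Cavin1 was high in replicate 3 (2.74 against 1.88 to 2.12), Osmr low in replicate 2 (0.33 against 1.15 to 1.44) and Flna low in replicate 5 (2.98 against 3.89 to 4.24). A single-array criterion does not pick up 12 h replicates 3 and 4, which stand apart together.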

How the results depend on the processing

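Every one of the 70 genes kept a peak height above 0 under quantile normalisation, median centring, the suffix as a block and the loss of any single array (lowest 0.09), and 28 met the rule in all 15 leave-one-out settings. With group medians in place of means, 82 genes met the rule, 48 of them among the 70. Heights from medians were below 0 for Ltbp1 (-0.42), Myorg (-0.13), Loxl1 (-0.04) and Clcf1 (-0.04). The number of genes that met the rule was 43 with median centring (42 of the 70), 41 with a filter at the 60th percentile, 8 by file codes, 120, 42 and 7 at thresholds of 0.4, 0.6 and 1, 258 within suffix B, and 47 to 113 when single arrays were left out, lowest without 12 h replicate 3 and highest without 12 h replicate 5. The genes with all 12 h arrays above the rest numbered 1 under quantile normalisation, median centring or averaged probe sets, 0 by file codes, 6 without 12 h replicates 3 and 4, and 3 to 13 with single arrays left out.

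For 12 h against undifferentiated cells, limma called 622 genes, and 935 with quantile normalisation, 1476 with the suffix as a block, 1920 without the pair, 404 from only those groups, 0 by file codes (81 at an unadjusted p under 0.05), and 174 to 1005 with single arrays left out, lowest without 12 h replicate 2 and highest without replicate 3. For 24 h against 12 h it called 33, and 17 with median centring, 18 with averaged probe sets, 202 with the suffix as a block, 1 with the pair averaged or left out, 2 from only those groups, 0 by file codes (21 unadjusted), and 1 to 362 with single arrays left out. Median centring split the 17 into 10 higher and 7 lower at 24 h, against 5 and 28. At 24 h against undifferentiated cells 2536 were called, 1003 higher and 1533 lower, but 1585 and 1315 under quantile normalisation and 1419 and 1112 under median centring, with 0 by file codes (118 unadjusted) and 2012 to 2804 with single arrays left out. The cause of these changes was not tested. The main model was unpaired, because the labels give the replicates no numbers and state no pairing. The title codes form 6 runs of consecutive codes, whose meaning the labels do not state. Within a run the codes follow the order of the groups. The near-identical 12 h arrays fall in different runs. Replicate 3 shares its run with undifferentiated replicate 3 and 24 h replicate 2, and replicate 4 with undifferentiated replicate 4 and 24 h replicate 3. Equal replicate numbers at 12 h and 24 h thus need not mark the same run. Of 13 same-run pairs from different groups, 12 had deviations from the group means that correlated above 0.1 (-0.09 to 0.54, median 0.33), against a median of 0.34 for 12 other pairs of the same suffix. With the runs as a block, an alternative chosen after the data were seen, 72 genes met the rule, 64 of them among the 70, and limma called 1169, 2 and 3077 genes; Itgav, Sema3a and Lats2 lost their calls (adjusted p = 0.0693, 0.0559 and 0.061).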
